A study of Mus musculus with 24 samples.

Results

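The cytosolic ribosomal protein genes of mouse thoracic aorta were taken as every row of the gene count table whose symbol is Rpl or Rps followed by a number, with or without a final a or x, together with Rplp0, Rplp1, Rplp2 and Rpsa. This gave 76 genes of the 25941 in the table, 45 of the large subunit and 31 of the small subunit. No symbol was repeated, and all 76 passed the filter on low counts that left 14528 genes for testing. Rpl41 was not analysed here.

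The aortas came from adult male wild-type C57BL/6 mice of 10 to 12 weeks. All groups ate regular chow for 3 weeks: the control chow held no drug, the celecoxib chow gave 100 mg/kg/day and the rofecoxib chow 50 mg/kg/day. Both drugs are selective inhibitors of cyclooxygenase-2, and their doses differed, so a difference between them is one between the diets as given. All 24 mice, controls included, received interleukin-1β (10 ug/kg, intraperitoneally) 4 h before collection at zeitgeber time 11, so no group shows an unstimulated aorta. Each group had 8 libraries of polyadenylated RNA, which the labels call biological replicates.

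The cytosolic ribosome is built from a small subunit, which reads the messenger RNA, and a large subunit, which joins the amino acids. Most of its proteins are needed in equal numbers, and the messenger RNAs of its proteins are among the most abundant of every cell. Most of these messengers begin with a cytosine and a run of pyrimidines, the 5′ terminal oligopyrimidine (TOP) tract, through which mTORC1 controls their translation; excess ribosomal proteins that are not assembled are degraded.

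The starts of 7 members are shown because their tracts, or the short run of Rps28, belong to genes whose values are followed below. Each is the annotated transcript start in RefSeq (GRCm38.p6) with 10 bases before it and 20 from it on, 5′ to 3′ on the gene's strand, and the capitals mark the unbroken run of C and T that begins with the C at the start.
Rpl35, chr2:39005112-39005141, minus strand: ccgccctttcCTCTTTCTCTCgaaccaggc
Rpl38, chr11:114668570-114668599, plus strand: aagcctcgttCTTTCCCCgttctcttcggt
Rpl28, chr7:4792955-4792984, plus strand: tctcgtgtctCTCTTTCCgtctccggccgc
Rplp2, chr7:141447641-141447670, plus strand: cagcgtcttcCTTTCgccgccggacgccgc
Rps6, chr4:86857348-86857377, minus strand: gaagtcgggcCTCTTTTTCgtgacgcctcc
Rps10, chr17:27635225-27635254, minus strand: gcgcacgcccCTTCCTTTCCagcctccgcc
Rps28, chr17:33824543-33824572, minus strand: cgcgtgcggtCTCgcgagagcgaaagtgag

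RefSeq starts were found for 55 of the 76 members, 65 starts in all. A C at the exact annotated start followed by at least 4 more C or T was found at 13 of the 65 starts (20%), against 823 of all 32851 mouse starts (2.51%). The motif CCGGAAG, read on both strands over the 300 bases around the start, was in 23 of the 65 (35.4%) and in 8.86% of all starts. TATAAA, read the same way, was in 9.23% of the member starts and in 13.6% of all. The 13 members with a pyrimidine start had a median log2 fold change of 0.15 for celecoxib against control and 0.06 for rofecoxib against control. The 42 members with another annotated start had 0.13 and 0.04. The rule needs a C at the exact annotated start, so an annotation off by a base can put a tract gene among these 42. The medians therefore cannot show whether members with and without a tract differ.

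Library totals lay between 21668798 and 21700121 reads. The summed members held between 2.10% and 2.83% of the reads of a library, and even the least counted member had at least 1605 reads in every library, so counting error was small for every member. Smooth muscle markers, which define the tunica media, were the highest of 11 marker lists in all groups, with summed levels of 26649 to 43148 CPM (TMM-scaled CPM, the share of a library's reads) over the 24 libraries. Lymphocyte markers were nearly absent, with 1 of 11 genes past the filter. In the control group, replicate 4 stood apart with low members (large subunit level 7.91, against 8.03 to 8.12 in the other 7). In both drug groups, replicates 5 to 8 stood above replicates 1 to 4; the labels name no batch that separates these numbers and say only that library construction took 3 days, with no day per library. Subunit medians and counts of members that rest on these libraries are given with and without them. Fold changes of single genes against control are not given without control replicate 4.

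The level of a subunit in a library is the mean log2 CPM of its genes. For the large subunit it was 8.04 ± 0.06 in control (SD, n = 8), 8.17 ± 0.11 with celecoxib and 8.08 ± 0.14 with rofecoxib. For the small subunit it was 8.13 ± 0.07, 8.26 ± 0.13 and 8.17 ± 0.15. The large subunit level minus the small subunit level was -0.090 ± 0.016 in control, -0.088 ± 0.021 with celecoxib and -0.091 ± 0.006 with rofecoxib. The 3 groups overlapped in this difference, and their means lay closer to each other than 1 SD of any group. In every group, control included, the difference was lower in all libraries of replicates 5 to 8 than in any of replicates 1 to 4. The means of replicates 1 to 4 and 5 to 8 were -0.078 and -0.101 in control. They were -0.070 and -0.105 with celecoxib and -0.087 and -0.096 with rofecoxib. The summed counts of both subunits moved together: large subunit genes held 1.33% ± 0.07 of control reads, 1.48% ± 0.13 with celecoxib and 1.42% ± 0.13 with rofecoxib, and small subunit genes held 0.93% ± 0.05, 1.03% ± 0.11 and 0.99% ± 0.09. These percentages are of all reads, without TMM scaling, so they can differ between groups by another amount than the levels do. In whole tissue, fewer cells of a type and less RNA per cell cannot be told apart.

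**Figure D1:**
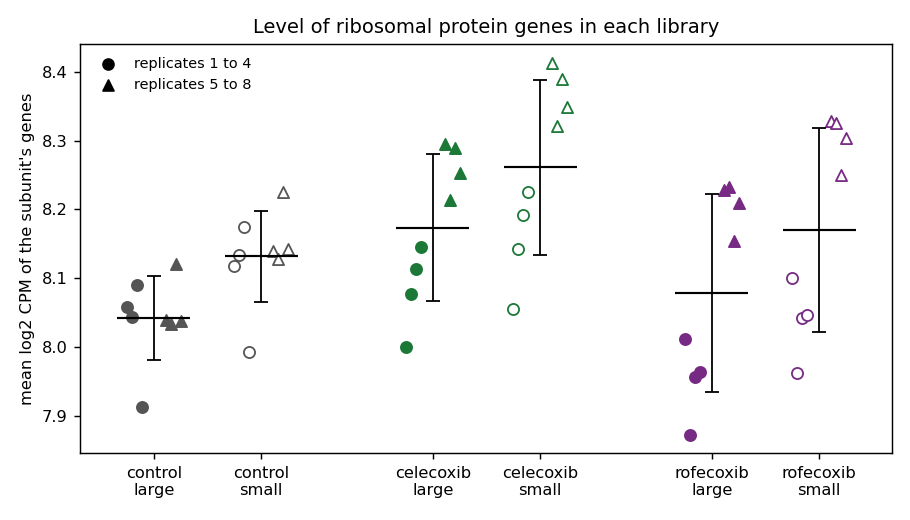
Mean log2 CPM of the 45 large subunit genes (filled) and the 31 small subunit genes (open) in each of the 24 libraries, by group; circles are replicates 1 to 4, triangles replicates 5 to 8, and bars give the mean and SD of 8 libraries. In both drug groups all 4 triangles lie above all 4 circles and above every control library of the same subunit, while 3 of the 4 control triangles lie among the control circles and 1 lies above them.

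With celecoxib against control, the fitted difference of all 76 members was above 0, and none passed the adjusted threshold. The median log2 fold change was 0.13 for the large subunit genes and 0.13 for the small, against 0.00 over all 14528 genes tested, of which 50.4% lay above 0. No member was called at an adjusted p under 0.05 (edgeR quasi-likelihood test, Benjamini-Hochberg over all genes), in a comparison that called 5 genes in all, 0.0344% of those tested. At an unadjusted p under 0.05, 41 members were higher and 0 lower, 28 of them in the large subunit and 13 in the small; over all genes 7.72% were higher and 5.83% lower by that rule. That count ran from 22 (without celecoxib replicate 7) to 61 (without celecoxib replicate 1) when 1 library was left out; it was 23 without celecoxib replicate 5 or control replicate 4, 25 without celecoxib replicate 8, 24 with brown adipocyte and skeletal muscle marker levels as covariates and 2 within replicates 1 to 4 alone. DESeq2 also called 0 members and 0.821% of the genes it gave an adjusted p. The members' standard errors had a median of 0.06. Without control replicate 4 the medians were 0.12 for the large subunit and 0.11 for the small.

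Rps20, a protein of the small subunit head, had the smallest p. Its level was 249 to 300.4 CPM in control (median 286), 301 to 329 CPM with celecoxib (median 317) and 248 to 311 CPM with rofecoxib (median 287). All 8 celecoxib libraries lay above every control library, the lowest of them only just. The difference was 0.17 ± 0.05 (log2, SE), with an adjusted p of 0.189 by edgeR's quasi-likelihood test. Rps20 was the 1 member whose groups did not overlap, a pattern found in 0.234% of all genes tested.

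Rpl35, which sits beside the exit of the nascent chain, had the highest fold change of the 76. It was counted at 94.9 to 120 CPM in control (median 115), 116 to 165 CPM with celecoxib (median 143) and 102 to 160 CPM with rofecoxib (median 130). Of the celecoxib libraries, 6 of 8 exceeded every control library, and the difference was 0.31 ± 0.10 (log2, SE; adjusted p = 0.202 by edgeR). Rps29, a zinc-binding protein of the small subunit, stood at 152 to 204 CPM in control and 195 to 248 CPM with celecoxib, a difference of 0.24 ± 0.08 (adjusted p = 0.206 by edgeR). Rpl14 was at 285 to 336 CPM in control and 328 to 378 CPM with celecoxib, with 7 of 8 above every control library and a difference of 0.15 ± 0.05 (adjusted p = 0.206 by edgeR). Rpl38, studied in mice for its role in the translation of Hox messengers, was at 87.1 to 106 CPM in control and 101 to 130 CPM with celecoxib, a difference of 0.26 ± 0.09 (adjusted p = 0.214 by edgeR). None of these passed the threshold.

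The stalk of the large subunit recruits the elongation factors, and its 3 members differed in size. Rplp0, its base, was at 613 to 671 CPM in control (median 643) and 643 to 746 CPM with celecoxib (median 703), 0.12 ± 0.04 on the log2 scale. Rplp1 was at 446 to 516 CPM in control and 459 to 621 CPM with celecoxib, 0.16 ± 0.07. Rplp2, the partner of Rplp1 in the stalk, was at 204 to 230 CPM in control and 193 to 232 CPM with celecoxib, and had the smallest difference of all members, 0.01 ± 0.04. The intervals of Rplp0 and Rplp2 overlapped, and their difference was not tested.

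Among members with roles of their own, the celecoxib differences were alike in size. Rpl5 and Rpl11, which bind Mdm2 and so stabilise p53 when assembly fails, had log2 differences of 0.11 ± 0.05 and 0.11 ± 0.05. Rps6, the substrate of S6 kinase, had 0.12 ± 0.06. Rps19, the gene most often mutated in Diamond-Blackfan anaemia, had 0.11 ± 0.06. Rpsa, also known as a laminin receptor, had 0.17 ± 0.06, and Rps27a, made as a fusion with ubiquitin, had 0.14 ± 0.07. Rpl3, at the peptidyl transferase centre, had 0.09 ± 0.04, Rpl10, which completes the large subunit, had 0.12 ± 0.05, Rps3, at the messenger entry, had 0.09 ± 0.06, and Rps4x had 0.16 ± 0.06. All of these were above 0, and none passed the adjusted threshold.

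With rofecoxib against control, the members' median lay near that of all genes over the 24 libraries, and it changed direction between the replicate sets. Of the 76, 59 lay above 0 (54.9% of all genes tested did), with a median log2 fold change of 0.04 for the large subunit and 0.04 for the small, against 0.02 over all genes. No member was called, in a comparison that called 1008 genes, 6.94% of those tested. At an unadjusted p under 0.05, 2 members were higher and 0 lower, while 16.4% of all genes were higher and 11.8% lower; DESeq2 called 0 members and 12.5% of all genes. The median was -0.07 within replicates 1 to 4 alone (4 of 76 above 0), 0.14 within replicates 5 to 8 alone (73 of 76 above 0) and 0.10 with the 2 marker levels as covariates (75 of 76 above 0). It turned below 0 in no left-out library, but with library sizes alone in place of TMM it was 0.10, where the median of all genes rose as well, to 0.08. Without control replicate 4 the medians were 0.03 and 0.02. Over all single libraries left out, the large subunit median ran from 0.02 (without rofecoxib replicate 6) to 0.07 (without rofecoxib replicate 2).

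The members with the smallest p in this comparison were Rpl11 and Rps29. Rpl11 was at 237 to 257 CPM in control (median 247) and 243 to 291 CPM with rofecoxib (median 267), a log2 difference of 0.11 ± 0.05 (adjusted p = 0.141 by edgeR). Rps29 was at 171 to 237 CPM with rofecoxib, 0.17 ± 0.08 above control (adjusted p = 0.157 by edgeR). Rpl35 had 0.20 ± 0.10, Rpl38 had 0.16 ± 0.09, Rps19 had 0.11 ± 0.06 and Rps28 had 0.20 ± 0.11. Among the 17 members at or below 0, Rpl36a (-0.05 ± 0.06), Rps14 (-0.05 ± 0.06), Rpl10 (-0.05 ± 0.05) and Rpl4 (-0.04 ± 0.05) had the lowest values, each within about 1 SE of 0.

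The direct comparison of celecoxib with rofecoxib put 75 of the 76 members higher with celecoxib, at a median log2 difference of 0.09 for the large subunit and 0.09 for the small, against 0.01 over all genes tested, of which 51.7% lay above 0. No member was called; 710 genes were, 4.89% of those tested. At an unadjusted p under 0.05, 14 members were higher and 0 lower, against 7.94% higher and 15.1% lower over all genes. That count ran from 9 (without rofecoxib replicate 2) to 29 (without celecoxib replicate 1) when 1 library was left out, and it was 0 with the marker levels as covariates and 2 within replicates 5 to 8 alone. It was 22 to 26 without rofecoxib replicate 5, 6 or 8 or without celecoxib replicate 2. The member closest to the threshold was Rps20, whose difference was 0.17 ± 0.05 with an adjusted p of 0.0508 (edgeR), and 7 of 8 celecoxib libraries were above every rofecoxib library. DESeq2 called 7 members (Rpl3, Rpl5, Rpl6, Rpl10, Rpl14, Rps3a and Rps20), all higher with celecoxib, where it called 9.77% of all genes. Leaving out rofecoxib replicate 8 gave 6 called members (13.7% of all genes), and leaving out celecoxib replicate 1 gave 3 (5.61% of all genes). Without rofecoxib replicate 6 there were 2, Rpl10 and Rps20 (5.6% of all genes), and there was 1, Rps20, without rofecoxib replicate 5 (5.28% of all genes), control replicate 4 (7.01%) or control replicate 7 (792 of 14616 genes). The large subunit median fell to 0.06 without rofecoxib replicate 2.

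Rpl10 was at 651 to 808 CPM with celecoxib (median 716), 548 to 722 CPM with rofecoxib (median 645) and 606 to 721 CPM in control (median 665). Its difference between the drugs was 0.17 ± 0.05 (adjusted p = 0.0621 by edgeR), with celecoxib above control and rofecoxib below it. Rpl5 (0.15 ± 0.05), Rpl3 (0.11 ± 0.04), Rps3a (0.16 ± 0.06) and Rpl6 (0.12 ± 0.04) followed. Rplp2 was the 1 member on the other side, at 193 to 232 CPM with celecoxib and 210 to 239.9 CPM with rofecoxib, a difference of -0.06 ± 0.04.

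Markers of fat, immune and nerve-sheath cells also differed between the drugs, in a comparison that called 4.89% of all genes in either direction. All 8 general adipocyte markers were lower with celecoxib than with rofecoxib (5 called), with summed levels of 612 to 1604 CPM against 823 to 3457 CPM, and so were all 7 brown adipocyte markers (3 called; 108 to 542 CPM against 368 to 1815 CPM). All 8 macrophage markers (4 called; 107 to 226 CPM against 138 to 369 CPM) and all 7 tested neutrophil markers (6 called; 11.2 to 40.5 CPM against 23.7 to 133 CPM) were lower as well. The 6 Schwann cell markers were all lower (3 called; 101 to 144 CPM against 113 to 728 CPM), and the 4 tested erythroid markers lay below 0 with 0 called (45.7 to 135 CPM against 69.1 to 419 CPM). Smooth muscle markers lay the other way, at a mean log2 CPM of 10.81 ± 0.13 with celecoxib and 10.62 ± 0.15 with rofecoxib (SD, n = 8). Endothelial levels were 5.94 ± 0.36 and 6.22 ± 0.38, and adventitial fibroblast levels 8.58 ± 0.21 and 8.58 ± 0.20. With brown adipocyte and skeletal muscle marker levels as covariates the members' median between the drugs fell to 0.01, with 49 of 76 above 0. In that fit the rofecoxib difference from control was 0.10 and the celecoxib difference 0.10. The brown adipocyte markers used as a covariate themselves differed between the drugs, as given above, so the fit cannot separate fat cells from the diets. The skeletal muscle level rested on the 5 of 8 markers past the filter. Its mean log2 CPM was 0.05 with celecoxib, 0.22 with rofecoxib and 0.30 in control, near the floor. In control the summed level ran from 4.42 to 48.0 CPM with a median of 5.72, so few libraries may lead this covariate. The part of the marked cell types in the members' levels was not tested.

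**Figure D2:**
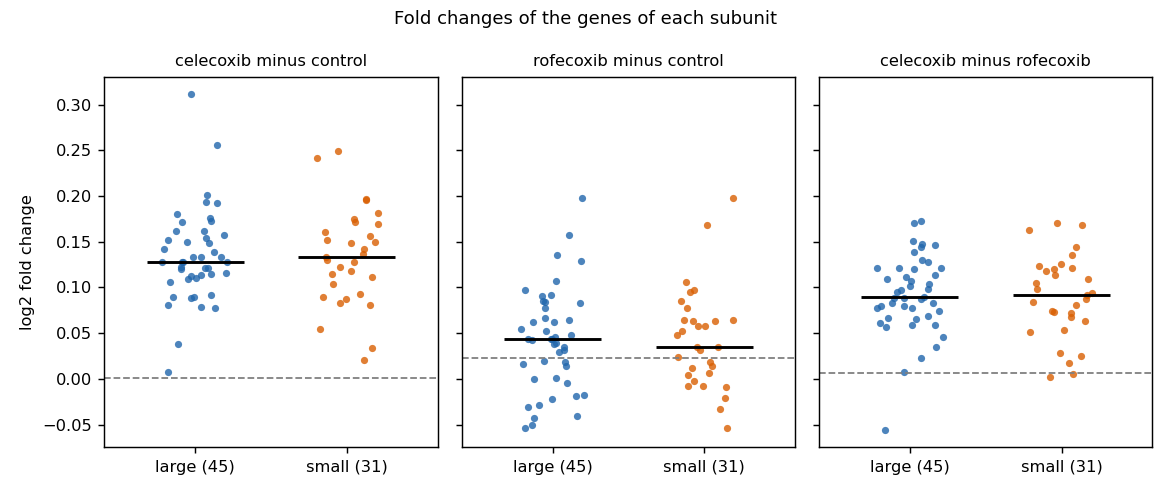
Log2 fold change of each member in the 3 comparisons, large subunit genes on the left of each panel and small subunit genes on the right; bars give the medians and the dashed line is the median of all 14528 genes tested. The large and small subunit medians are 0.13 and 0.13 for celecoxib against control, 0.04 and 0.04 for rofecoxib against control and 0.09 and 0.09 between the drugs.

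**Figure D3:**
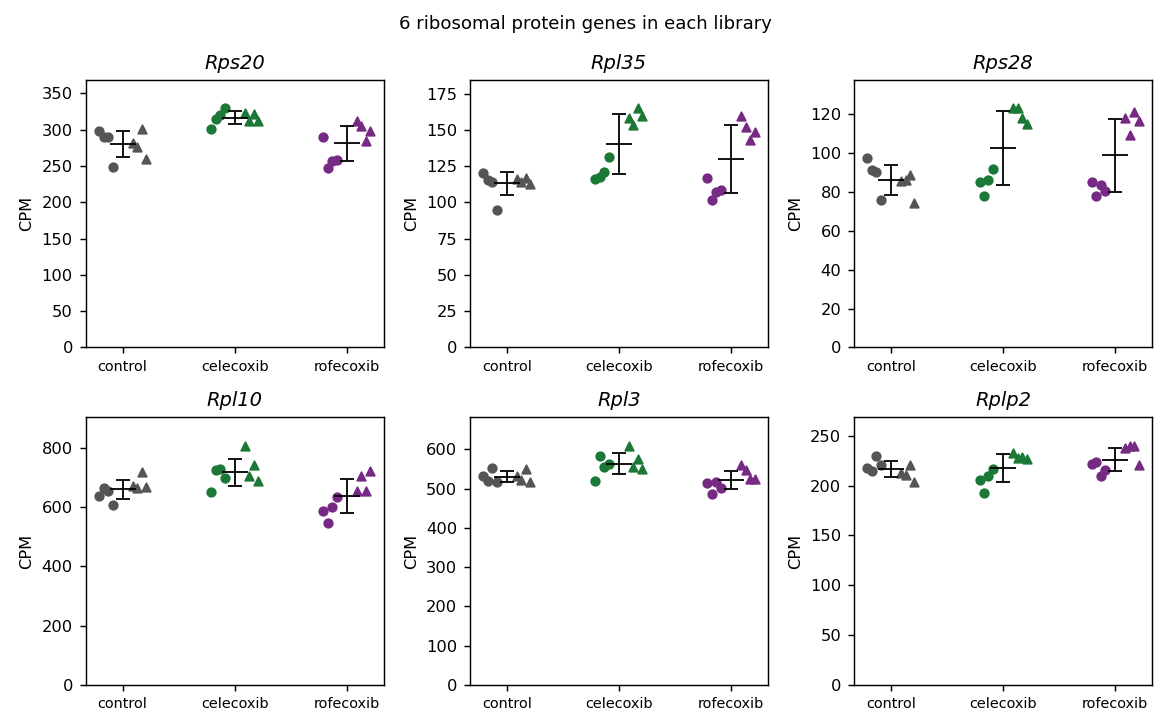
CPM of 6 members in each library by group, from 0; circles are replicates 1 to 4, triangles replicates 5 to 8, and bars give the mean and SD of 8 libraries. Rps20 is higher in all 8 celecoxib libraries than in any control library, while Rpl35 and Rps28 are highest in replicates 5 to 8 of both drug groups, and Rpl3 and Rplp2 vary little.

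The members varied together. After group means were removed, the correlation of a member with the mean of the other 75 over the 24 libraries had a median of 0.90 and was lowest for Rpl39, at 0.44; the members share library and depth, so this is a description. The SD of a member's log2 CPM within groups had a median of 0.12. It was largest for Rps28, Rpl35 and Rpl35a and smallest for Rpl3, Rplp0 and Rpl6. Per kilobase of transcript, the median control level was 336 CPM for large and 417 CPM for small subunit genes, with Rplp1 (971) and Rpl10 (828) highest; 3 members, Rps15a, Rpl24 and Rps20, are annotated with transcripts above 3000 bases, which makes their values per kilobase low.

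The spread within the drug groups followed the replicate numbers. The member level was 8.11 ± 0.07 in celecoxib replicates 1 to 4 and 8.31 ± 0.04 in replicates 5 to 8 (SD, n = 4), 7.99 ± 0.06 and 8.25 ± 0.04 with rofecoxib, and 8.06 ± 0.08 and 8.10 ± 0.04 in control. In both drug groups all 4 libraries of replicates 5 to 8 lay above all 4 of replicates 1 to 4 and above all 8 control libraries. This split was chosen with earlier results of these libraries known, and the labels name no batch for it, so the calls within a set and between the sets describe these libraries and are not independent evidence of a difference. From replicates 1 to 4 to replicates 5 to 8, 75 of 76 members were higher with celecoxib, 76 of 76 with rofecoxib and 57 of 76 in control. Of all 14528 genes tested, 7387 were higher with celecoxib, 7228 with rofecoxib and 7008 in control. Other lists changed as well (mean log2 CPM, celecoxib, rofecoxib and control in that order). Host genes of small nucleolar RNAs with TOP starts changed by 0.20, 0.17 and -0.07, and ribosomal components outside the rule by 0.08, 0.16 and -0.003. Ribosome biogenesis genes changed by 0.16, 0.06 and -0.01, and translation factors and other TOP messengers by 0.05, 0.11 and 0.06. RNA polymerase I genes changed by 0.09, 0.05 and -0.01, and mitochondrial ribosomal proteins by 0.06, 0.01 and -0.08. Respiratory chain subunits changed by 0.04, -0.11 and -0.24, mTORC1 genes by -0.01, -0.10 and -0.06, and p53 targets by -0.02, -0.01 and 0.01. The mean over all genes tested changed by -0.02, -0.07 and -0.04.

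Within replicates 5 to 8 alone, 23 members were called higher with celecoxib than in control, 14 of the large and 9 of the small subunit (0.506% of all genes were called higher), and all 76 lay above 0 (51.8% of all genes) at a median of 0.19. Within replicates 1 to 4 alone 0 members were called (0.0136% of all genes were called higher; 2 members were higher and 0 lower at an unadjusted p under 0.05), and 64 of 76 lay above 0 (50.7% of all genes) at a median of 0.06. For rofecoxib against control, replicates 5 to 8 gave 11 called members, 7 large and 4 small and all higher (0.686% of all genes were called higher), with 73 of 76 above 0 (54.7% of all genes) and a median of 0.14. Replicates 1 to 4 gave 0 called members (0.286% of all genes were called in either direction; 0 members were higher and 3 lower at an unadjusted p under 0.05), with 4 of 76 above 0 (53.2% of all genes) at a median of -0.07. The median for rofecoxib thus turned its direction between the replicate sets, and both drug comparisons share the same 4 controls in each set. Between the drugs, 73 of 76 members were higher with celecoxib within replicates 1 to 4 (50.5% of all genes), at a median of 0.13, and 74 of 76 within replicates 5 to 8 (49.2% of all genes), at a median of 0.07. Rpl10, Rps20 and Rps3a were called within replicates 1 to 4 (14.1% of all genes) and 0 members within replicates 5 to 8 (0% of all genes; 2 members were higher and 0 lower at an unadjusted p under 0.05).

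Rps28, which has the short start run shown above, differed most between the sets. With celecoxib it was at 78.1 to 91.9 CPM in replicates 1 to 4 and 115 to 123 CPM in replicates 5 to 8. With rofecoxib it was at 77.9 to 85.2 CPM and 109 to 121 CPM, and in control at 76.0 to 97.4 CPM and 74.3 to 88.8 CPM. The ranges of the sets were apart in both drug groups and overlapped in control. The drug difference was larger in replicates 5 to 8 by 0.57 ± 0.10 (log2, SE) for celecoxib and 0.59 ± 0.10 for rofecoxib in an edgeR fit with an interaction term over all genes.

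That interaction passed the adjusted threshold, as a description of the chosen split, for 4 members with celecoxib, Rps28, Rpl36, Rplp1 and Rpl19, and for 10 with rofecoxib, Rps28, Rpl36, Rpl38, Rpl35, Rpl28, Rpl37, Rpl19, Rpl23a, Rps10 and Rps27 (1.17% and 1.05% of all genes were called). Rpl36 was at 95.5 to 118 CPM in celecoxib replicates 1 to 4 and 139 to 143 CPM in replicates 5 to 8, against 102 to 119 CPM and 104 to 116 CPM in control. Members with the tracts shown above were on both sides: Rpl35, Rpl38, Rpl28 and Rps10 were called with rofecoxib, and Rplp2 and Rps6 were not. Over the 76 members, the change from replicates 1 to 4 to 5 to 8 had a Spearman correlation with transcript length of -0.31 with celecoxib, -0.38 with rofecoxib and -0.05 in control, a description over genes that share libraries. Other tested genes with transcripts no longer than the members' median had medians of 0.10 and 0.22 for the 2 drugs against control within replicates 5 to 8, and -0.06 and 0.08 within replicates 1 to 4.

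Cell markers also moved between the sets. The endothelial marker level went from 5.73 to 6.15 (mean log2 CPM) in the celecoxib group, from 6.37 to 6.06 in the rofecoxib group and from 5.82 to 5.70 in control. The general adipocyte level went from 5.63 to 5.65 with celecoxib, 7.13 to 6.35 with rofecoxib and 6.12 to 5.39 in control. Brown adipocyte markers went down in all 3 groups, by -0.23 with celecoxib, -0.49 with rofecoxib and -0.66 in control. Erythroid markers changed by -0.16 with celecoxib, -0.83 with rofecoxib and 0.26 in control, so that list went 1 way in both drug groups and the other way in control. Adventitial fibroblast markers changed by 0.34 with celecoxib, 0.04 with rofecoxib and 0.02 in control, and Schwann cell markers by 0.17, 0.06 and 0.17. In the same order, smooth muscle markers changed by -0.13, 0.10 and 0.11, macrophage markers by 0.30, -0.13 and -0.13, and neutrophil markers by 0.37, -0.82 and -0.28. In the smooth muscle, macrophage and neutrophil lists the drug groups went opposite ways. The part of these cells in the members' change was not tested.

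**Figure D4:**
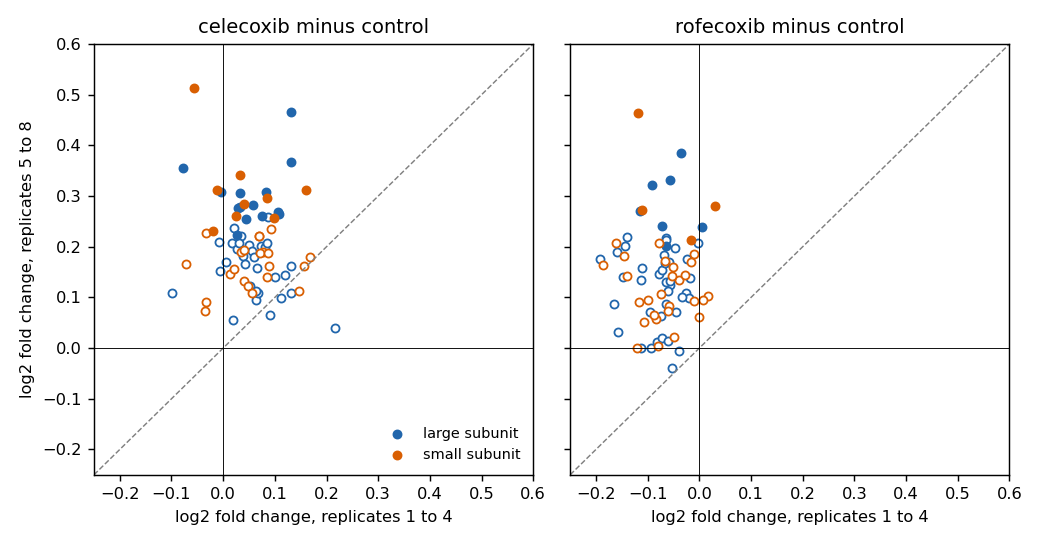
Log2 fold change of each of the 76 members against control within replicates 1 to 4 (horizontal) and within replicates 5 to 8 (vertical); filled points were called within replicates 5 to 8 and the dashed line marks equal values. Nearly all points lie above the line for both drugs, and with rofecoxib 4 of 76 lie right of 0.

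Ribosomal components outside the rule were followed by name. Gnb2l1, now called Rack1, a scaffold on the small subunit, had 540 ± 28.9 CPM with celecoxib, 498 ± 28.9 with rofecoxib and 504 ± 13.5 in control (SD, n = 8), and did not pass in any comparison. Fau, the source of a small subunit protein, Rpl36al, Rpl22l1, Rpl7l1 and Rps27l also did not pass.

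Mitochondrial ribosomal proteins, which serve the organelle's own ribosome, differed from the cytosolic set in the same libraries. With rofecoxib, 20 of 75 were called higher and 0 lower, at a median of 0.18, where 6.94% of all genes were called in either direction. Mrpl27 (18.5 ± 1.55 to 23.5 ± 0.99 CPM, 0.35 ± 0.06) and Mrps10 (15.8 ± 1.23 to 20.5 ± 1.57 CPM, 0.37 ± 0.07) were among them. With celecoxib, 0 of 75 were called, 47 lay above 0 and the median was 0.03. Between the drugs 7 were called lower with celecoxib, at a median of -0.14, where the cytosolic median was 0.09 and 4.89% of all genes were called. Of the respiratory chain subunits, 25 of 78 were also called higher with rofecoxib (median 0.34) and 0 with celecoxib (median -0.04). The adipocyte markers given above were higher with rofecoxib than with celecoxib as well. From replicates 1 to 4 to 5 to 8 with rofecoxib, the general adipocyte level changed by -0.79. Respiratory chain subunits changed by -0.11 and mitochondrial ribosomal proteins by 0.01. The part of fat cells in these 2 lists was not tested.

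**Figure D5:**
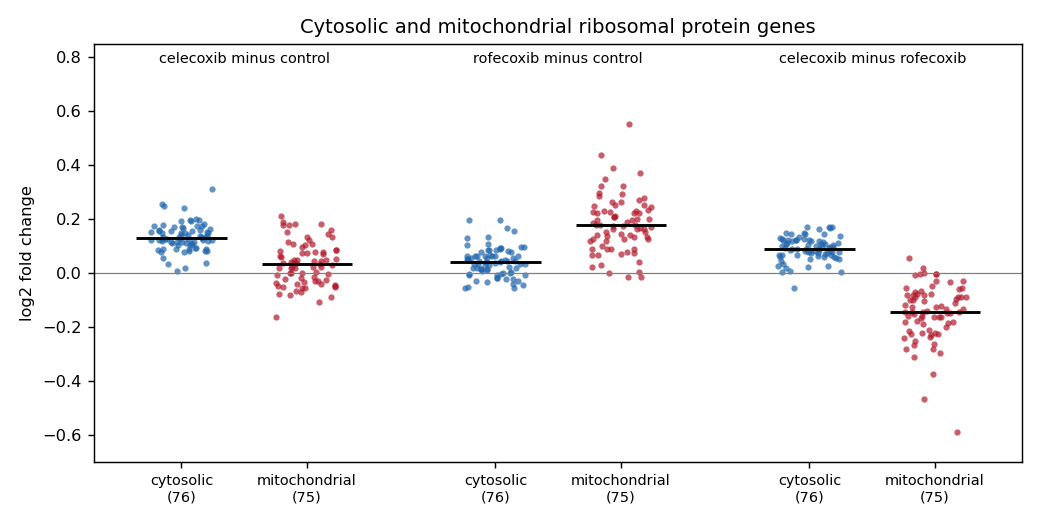
Log2 fold change of the 76 cytosolic and the 75 tested mitochondrial ribosomal protein genes in the 3 comparisons; each point is a gene and bars give medians. The cytosolic medians are 0.13, 0.04 and 0.09, and the mitochondrial medians are 0.03, 0.18 and -0.14.

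Genes that make ribosomes were read for comparison, in comparisons that called 0.0344% of all genes with celecoxib and 6.94% with rofecoxib; the 3 of 53 biogenesis genes below are near the latter share. Of 53 ribosome biogenesis genes, 0 were called with celecoxib (29 above 0) and 3 were higher with rofecoxib: Dkc1, which modifies ribosomal RNA (28.0 ± 2.81 to 36.1 ± 3.57 CPM), Nop10, its partner (33.8 ± 1.81 to 37.9 ± 2.21 CPM), and Mrto4 (log2 difference 0.17 ± 0.05). Of 15 RNA polymerase I genes, Polr1d, Polr1a and Cd3eap were higher with rofecoxib and 0 were called with celecoxib. Among 21 translation factors and other TOP messengers, 0 were called with celecoxib, 16 lay above 0 and the median was 0.06. With rofecoxib 2 of them were lower, Eef2, which moves the ribosome along (1875 ± 66.5 to 1653 ± 80.9 CPM, -0.18 ± 0.05, adjusted p = 0.0298 by edgeR), and Eif4b (249 ± 13.1 to 226 ± 8.34 CPM, -0.14 ± 0.04, adjusted p = 0.0364 by edgeR). Of 6 host genes of small nucleolar RNAs with TOP starts, Snhg7 was higher with rofecoxib (7.32 ± 0.56 to 9.43 ± 1.55 CPM) and 0 were called with celecoxib.

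In the list of 23 genes of mTORC1, which drives TOP translation, Ddit4, an inhibitor of the complex, was lower with both drugs, at 82.7 ± 13.0 CPM in control, 32.3 ± 10.3 with celecoxib (-1.36 ± 0.22, adjusted p = 0.0200 by edgeR) and 41.4 ± 18.0 with rofecoxib (-0.998 ± 0.22, adjusted p = 0.0129 by edgeR). Sesn3, another inhibitor, was lower with rofecoxib (7.49 ± 0.95 to 4.68 ± 0.89 CPM, -0.68 ± 0.13). No other gene of that list was called against control, and its median was 0.00 with both drugs. Of 11 p53 targets, which report on blocked ribosome assembly among other signals, 0 were called with celecoxib. With rofecoxib Cdkn1a (215 ± 64.9 to 115 ± 27.9 CPM) and Trp53inp1 (404 ± 88.0 to 249 ± 54.7 CPM) were lower and Phlda3 (log2 difference 0.54 ± 0.15) was higher.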

How the data were processed

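Poly(A)-selected RNA of 24 mouse thoracic aortas was sequenced from TruSeq libraries, per the labels' protocols. The authors deposited whole-number read counts per gene; CASAVA 1.8.1, STAR 2.5.1b and mm9 are named in the submitters' processing notes, while no source used here names the counter, the annotation or the strand setting, or says why library totals are nearly equal; overlapping and antisense genes may thus share reads. From these counts, edgeR 4.0.16 (R 4.3.3) was run as a quasi-likelihood fit of the 3 group means over all libraries, after TMM scaling and the default filter, with adjusted p over 14528 genes; the common coefficient of variation was 19.6%. Standard errors come from that fit, and mean ± SD values are over libraries. Alternatives used DESeq2 1.42.0 and limma 3.58.1 among others; the scripts were tested on simulated counts. Genes called were those at an adjusted p under 0.05.

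The members and gene lists were chosen with earlier results of these data known. Named members were those with the smallest p, fixed members of known function, those with the largest and smallest SD, and those opposite to the median; others were named for a call. Rows whose symbol marks a ribosomal pseudogene held 77400 reads, 0.621% of the members' counts, so reads of near-identical copies may be split. Transcript lengths are from GENCODE M21, starts from RefSeq. Some genes that these rules name are not reported here.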

Additional observations from a re-analysis of the deposited data

Results flagged for a closer look

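In control replicate 4 the large subunit level was 7.91 and the small subunit level 7.99, each farther below the other 7 control libraries than Dixon's 95% limit allows. The same library was low for Rpl14 (285 CPM), Rpl35 (94.9 CPM), Rpl36a (107 CPM), Rpl5 (322 CPM) and Rps29 (152 CPM), and celecoxib replicate 1 was low for Rpl4 (794 CPM). These were 8 of 87 groups examined; chance flags about 1 in 20, and the members are correlated, so the flags are not independent.

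The drug minus control difference was larger in replicates 5 to 8 than in replicates 1 to 4 by an interaction test over all genes (edgeR, adjusted p under 0.05) for 14 combinations of member and drug. With celecoxib the differences were 0.57 for Rps28, 0.44 for Rpl36, 0.31 for Rplp1 and 0.25 for Rpl19 on the log2 scale. With rofecoxib they were 0.59 for Rps28, 0.42 for Rpl36, 0.39 for Rpl38, 0.43 for Rpl35, 0.39 for Rpl28, 0.37 for Rpl37, 0.27 for Rpl19, 0.32 for Rpl23a, 0.39 for Rps10 and 0.36 for Rps27. Both drugs were set against the same controls. The split by replicate number was chosen with earlier results of these libraries known, so this test describes the chosen split and is not independent evidence of a difference.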

How the results depend on the processing

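Every alternative kept both subunit medians above 0 for celecoxib, against control and against rofecoxib. For rofecoxib against control they turned to -0.07 and -0.07 in replicates 1 to 4 alone; the cause was not tested. The large minus small level difference moved by less than the pooled SD of the 2 groups under a prior count of 0.5, library size alone, the log2 ratio of summed CPM, either replicate set and each library left out. Member calls for celecoxib against control went from 0 to 3 with a term for replicates 1 to 4 against 5 to 8 (1.2% of all genes called) and to 23 in replicates 5 to 8 alone (2.17%); for rofecoxib they went to 1 (11.9%) and 11 (2.78%). Between the drugs they were 1 with RLE size factors (4.83%), with a mean of at least 1 CPM (5.29%) and with limma voom (5.93%), 7 with DESeq2 (9.77%) and with the term (6.46%), 3 in replicates 1 to 4 alone (14.1%), and 0 to 6 when 1 library was left out. Named members gained a call in 10 combinations of gene and setting for celecoxib against control, 6 for rofecoxib against control and 28 between the drugs; 0 calls were reversed. Leaving out 1 library gave 0 calls for each drug against control. Replicate numbers were not used as pairs in the main fit. Of 24 same-numbered pairs, 12 correlated above 0.1, and in 6 the own number gave the best correlation. These values cannot settle whether the numbers pair the samples. Libraries of different groups had a mean correlation of 0.06 within the same replicate set and -0.06 across the sets. With the replicate block, member calls stayed at 0 in all 3 comparisons, with medians of 0.13, 0.04 and 0.09. Members higher at an unadjusted p under 0.05 (edgeR) numbered 51, 5 and 23 with the block, against 41, 2 and 14 without it. A difference near the median SE of 0.06 is not detectable after adjustment, and differences several times their SE were not called either. With celecoxib against control, Rps20 at 0.17 ± 0.05 had an adjusted p of 0.189 by edgeR. Rpl35 at 0.31 ± 0.10 had 0.202 by the same test, so the lack of a call does not show the lack of a difference.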
